A study of Mus musculus with 12 samples.

Results

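The libraries described here are the 1st and the 2nd library of myocardial tissue from each of 2 mice with myocardial infarction, MI mouse 2 and MI mouse 3. They were chosen by their labels and make up 4 of the 12 libraries of the series. Both mice were wild type and their treatment was left coronary ligation, which stops blood flow to part of the left ventricle and causes an infarct. The study asked how gene expression of infarcted myocardium responds to 5'-(N-ethylcarboxamido)adenosine (NECA), an adenosine analogue that activates adenosine receptors. Its other 8 libraries came from 1 mouse each, and serve here only as a reference range. They are 3 wild-type mice labelled as sham and vehicle, MI mouse 1 with left coronary ligation, and 4 wild-type mice given NECA locally into infarcted myocardium. Strain, sex, age and the time after ligation are not given in the labels, and neither is the region of the heart that was sampled. The labels also do not say whether the 1st and 2nd library of a mouse come from separate tissue pieces, extractions or preparations. The tests between them therefore measure only the spread between these libraries, which may be technical.

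A heart after coronary ligation holds surviving cardiomyocytes, fibroblasts that lay down a collagen scar, endothelial cells, and immune cells that arrive in waves, neutrophils first and then monocytes, macrophages and lymphocytes. Cardiomyocyte and mitochondrial transcripts take most of the RNA of such tissue, so transcripts of scarce cells (nerve, conduction system, lymphocytes) and of signalling molecules are spread thinly. In RNA sequencing each transcript is sampled in proportion to its share of the library, and a transcript that is expected less than once at a given depth is usually missed.

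Each of the 1st libraries was larger than the 10 others together. They held 30.7 M counts (M stands for 1e6) in mouse 2 and 27.1 M in mouse 3, against 0.972 and 0.960 M in the 2nd libraries, 31.6 and 28.3 times as many. The 8 other libraries held 1.06 to 1.33 M. Levels are given as counts or as CPM, counts per 1e6 counts of a library. A single count stood for 0.0325 and 0.0369 CPM in the 1st libraries of mice 2 and 3, and for 1.03 and 1.04 CPM in the 2nd. A gene with no count in either 2nd library may be present there at up to 1.55 CPM, which is 3 counts over both. Intervals and such limits are at the 95% level, exact, and cover counting error only, because the counts are of reads and are not known to be of separate molecules. As a check of the tissue label, all 21 contractile genes of cardiomyocytes had at least 10 counts in each of the 4 libraries. Albumin (Alb), a liver gene, had none. The collagen and matrix list summed to 2751 CPM in the 1st library of mouse 2, inside the 2153 to 4635 CPM of the 3 sham mice, and to 23330 CPM in that of mouse 3, above every other mouse. Folds between the mice are ratios of CPM, in which the median of the 14875 genes with at least 10 counts in both 1st libraries was 1.36-fold higher in mouse 3. They are not corrected for the low level of long transcripts in the 1st library of mouse 2, which is described below.

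The greater depth brought many more genes into view. At least 1 count was found for 21120 genes in the 1st library of mouse 2 and for 14301 in its 2nd. In mouse 3 the numbers were 22455 and 15025, and the 8 other libraries gave 14143 to 15580. Drawing as many counts as the 2nd library holds from the shares seen in the 1st would give 14150 genes in mouse 2 and 15153 in mouse 3, close to those found. The gain was larger for genes measured well. At least 100 counts were reached by 10919 and 11726 genes in the 1st libraries, against 974 and 1098 in the 2nd.

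**Figure D1:**
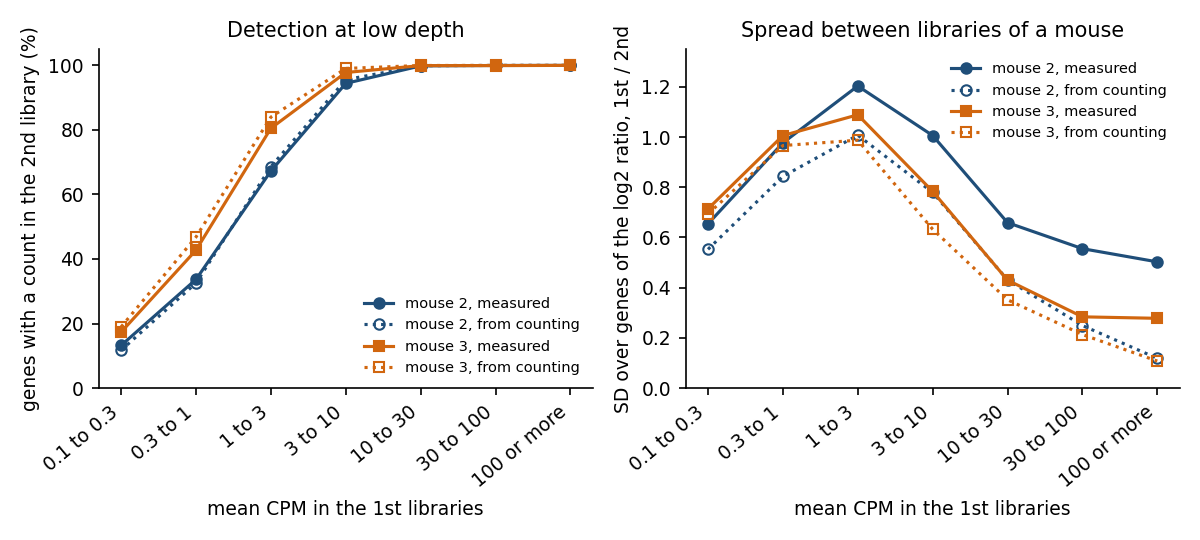
Left, percent of genes with at least 1 count in the 2nd library (vertical axis) by bins of mean CPM in the 1st libraries (horizontal axis), for mouse 2 (circles) and mouse 3 (squares), measured (filled) and as counting alone predicts (open). Right, the standard deviation over genes of the log2 ratio of the 1st to the 2nd library in the same bins. Between 1 and 3 CPM, 67.3% of the genes were found in the 2nd library of mouse 2 and 80.5% in that of mouse 3, and above 100 CPM the spread was 0.50 and 0.28.

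Whether a gene was found in a 2nd library followed its level. Of genes at 0.3 to 1 CPM in the 1st libraries, 33.7% had a count in the 2nd library of mouse 2 and 42.7% in that of mouse 3, where counting predicts 32.6% and 46.8%. At 1 to 3 CPM the shares were 67.3% and 80.5%, against 68.6% and 84.0% predicted. At 3 to 10 CPM they were 94.4% and 97.8%, against 95.6% and 99.1%. Mouse 3 stayed a few percentage points under the prediction in each of these 3 bins.

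Transcripts seen only at depth were a small set of low-level genes. Of 14875 genes with at least 10 counts in both 1st libraries, 548 (3.68%) had no count in either 2nd library, where counting from their 1st-library levels predicts 440. A further 3829 had 1 to 9 counts over both 2nd libraries, and 10498 had 10 or more. These values chose the 548 genes, so the figures describe them and are not tests. Their median level was 0.731 CPM (interquartile range 0.541 to 1.04), and 401 of them were below 1 CPM. They held 0.0571% of the counts of the 1st libraries, and the 3829 genes with 1 to 9 counts held 0.985%. Of the 14875 genes, 7472 had at least 10 counts in each 2nd library, a number to set beside the list counts below. The part of level in those list counts was not tested. Many genes lay close to the limits of 10 and 0 counts. Of the 548, 42 had exactly 10 counts in their lower 1st library, 95 genes missed it with 9, and 639 missed it with a single count in 1 of the 2nd libraries.

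The 8 other mice, which took no part in choosing the genes, had most of them as well. At least 1 of those libraries held a count for 530 of the 548. The 3 sham libraries together held 431 of them, the 4 NECA libraries 488, and the library of MI mouse 1 held 279. Counting from the 1st-library levels predicts 503, 521 and 321. Their summed level was 508 CPM in the 1st library of mouse 2 and 641 CPM in that of mouse 3, and 339 to 575 CPM in the other mice. Being seen only at depth in these mice was thus not the same as being absent from smaller libraries of other mice.

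The 10 such genes of highest level with an established symbol were led by a pair that near-identical copies make uncertain. Zfp969, a zinc finger gene, had 1189 counts in the 1st library of mouse 2 and 1356 in that of mouse 3, and at most 2 in any of the 8 others. Its level was at least 28.3-fold higher in the 1st libraries than in the 2nd, where 85.6 counts were predicted. All of its transcript sequence also occurs in other genes, mainly its neighbours in name Zfp966, Zfp967 and Zfp968. Fam177a had 756 and 903 counts in the 1st libraries, at least 18.5-fold higher than in the 2nd. Unlike Zfp969, it was counted in every other mouse (15 to 33 counts), and its case is taken up with the differing gene pairs.

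The other 8 had lower levels. Olfr77, an olfactory receptor gene, had 141 counts in mouse 2 and 64 in mouse 3, and Usp50, of the deubiquitinase family, had 129 and 52. Both were higher in mouse 2 (Usp50 by 2.19-fold, interval 1.58 to 3.08). The remaining 6 were higher in mouse 3 in CPM. Abcc3, an export transporter for organic anions, had 32 and 130 counts, and Trpm3, a cation channel gene, 43 and 105. Sema3a, a guidance signal that repels growing axons and patterns sympathetic nerves in the heart, had 53 and 91. Sowahc had 58 and 102, Jrk 59 and 84, and Zfp433 69 and 73. Of the sequence of Zfp433, 87.1% occurs in other genes, so its counts are uncertain too.

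Only 18 of the 548 had no count in any of the 10 libraries of lower depth. Gm14288 led them with 65 and 143 counts in the 1st libraries, and all of its sequence is shared with other genes. Prtn3, a serine protease stored in neutrophil granules, had 20 counts in mouse 2 and 28 in mouse 3. Aqp2, the water channel known from the kidney collecting duct, had 11 and 29, and Fmo4, a flavin monooxygenase gene, 15 and 22. Bcl2a1d had 10 and 31, with 89.1% of its sequence shared. There were also 5 processed pseudogenes with the same 19 and 13 counts each, Gm10243, Rpl35a-ps2, Rpl35a-ps3, Rpl35a-ps4 and Rpl35a-ps6. All of their sequence occurs in other genes, and RSEM divides reads among such copies, so these single counts are uncertain. These names were picked after their values were seen.

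Non-coding genes and pseudogenes were more often seen only at depth than protein coding genes. Of 13250 protein coding genes with 10 counts in both 1st libraries, 289 (2.18%) had no count in the 2nd. The shares were 14.6% of 329 long intergenic non-coding RNAs, 14.8% of 324 antisense RNAs and 19.6% of 260 processed pseudogenes. Levels moved with this: the median in the 1st libraries was 16.1 CPM for protein coding genes, 1.71 CPM for intergenic and 1.41 CPM for antisense RNAs, and 1.63 CPM for processed pseudogenes. Its part in the shares was not tested. By name, 287 of the 548 carry only a clone or accession name. Predicted genes with Gm names were 187 of the 548 and 953 of the 14875. RIKEN clone genes were 56 and 544, and genes with no entry in the annotation 42 and 223. Sequence in common with other genes was also more frequent, with at least 50% of the transcript shared in 85 (16.8%) of the 506 that have a sequence in the annotation and in 647 (4.42%) of 14652 among the 14875.

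T cell transcripts were few at any depth. In bulk tissue, fewer cells of a type and less RNA per cell cannot be told apart, here and for every cell type below. Of 19 T cell markers, 10 had at least 10 counts in both 1st libraries and none in both 2nd. Cd4, the co-receptor of helper T cells, had 18 counts in mouse 2 and 45 in mouse 3, against 1 and 2 in the 2nd libraries. Cd247, the zeta chain of the T cell receptor complex, had 33 and 55 against 0 and 0. Cd28 and Ctla4, the activating and the inhibitory receptor for the same ligands, had 93 and 57, and 73 and 37. Cd8a, the co-receptor of cytotoxic T cells, had 2 and 6 counts, and Foxp3, the factor of regulatory T cells, 4 and 6. Ccr7, which guides naive T cells and dendritic cells to lymph nodes, was seen only at depth with 14 and 19.

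B cell and plasma cell transcripts were higher in mouse 2. Ighm, the constant part of immunoglobulin M, had 4194 counts in the 1st library of mouse 2 and 713 in that of mouse 3, against 156 and 31 in the 2nd. Jchain, which joins secreted immunoglobulin units, had 684 and 88, a level 6.86-fold higher in mouse 2 (interval 5.49 to 8.66). Ms4a1, which encodes CD20, had 67 and 14, 4.22-fold higher (interval 2.35 to 8.14), where the 2nd libraries held 1 and 1. The whole list of 16 markers summed to 275 and 56.5 CPM in the 1st libraries and to 269 and 62.5 CPM in the 2nd, so the sum was resolved at either depth. Ighm was as well, at 5.19-fold higher in mouse 2 in the 1st libraries (interval 4.79 to 5.63) and 4.97-fold in the 2nd (interval 3.36 to 7.56). Across the other mice the sum of the list ran from 9.77 CPM in a sham mouse to 1272 CPM in MI mouse 1.

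Neutrophil transcripts were scarce in both mice. In the 1st libraries the markers summed to 232 counts in mouse 2 and 481 in mouse 3. The 2nd libraries held 12 and 14. Members went both ways. Ngp (11 and 1), Camp (9 and 1), Retnlg (5 and 2) and Ltf (3 and 1) were higher in mouse 2, at low counts. Csf3r, the receptor for granulocyte colony-stimulating factor, had 31 counts in mouse 2 and 147 in mouse 3, 5.37-fold higher in mouse 3 (interval 3.63 to 8.19). In the 2nd libraries it had 1 and 4, a fold of 4.05 whose interval ran from 0.401 to 199. S100a8, a subunit of the calprotectin of neutrophils and monocytes, had 27 and 60, 2.52-fold higher in mouse 3 (interval 1.57 to 4.13), and S100a9 had 39 and 72. All 5 neutrophil markers with 10 counts in both 1st libraries had 1 to 9 over the 2nd. Cpa3 and Mcpt4, proteases of mast cell granules, were higher in mouse 2 with 73 and 31, and 101 and 41 counts. Of the same list of mast cell, basophil and eosinophil markers, Cma1 (98 and 47) went with them. Hdc (55 and 89) and Kit (182 and 285) were higher in mouse 3. The whole list was near even, with 610 and 575 counts in the 1st libraries.

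Platelet genes were scarce as well. Ppbp, a chemokine precursor of platelets, had 74 counts in mouse 2 and 30 in mouse 3 and none in the 2nd libraries, 2.18-fold higher in mouse 2 (interval 1.41 to 3.45). Of 8 tested megakaryocyte and platelet markers, 7 had a positive log2 fold change of the 1st against the 2nd library, with a median of 0.70 against 0.05 over all tested genes. Ppbp, with no count in the 2nd libraries, could only be positive, and Gp9 was at 0.01. Apart from Pf4 (6 and 19 counts), the 2nd libraries held few counts of these genes, such as 1 and 2 of Itga2b. Their signs were therefore poorly resolved, and no result about the list is drawn from them. None of the 8 passed the test of single genes described below.

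Macrophage transcripts were covered at both depths. Of 20 macrophage and monocyte markers, 19 had 10 counts in both 1st libraries and 15 of these had 10 or more over the 2nd. The list summed to 490 and 1306 CPM in the 1st libraries and to 426 and 1308 CPM in the 2nd. Within it, Arg1, an arginase of alternatively activated macrophages, was the most uneven of the genes named here, with 6 counts in mouse 2 and 358 in mouse 3, against 0 and 14 in the 2nd libraries.

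**Figure D2:**
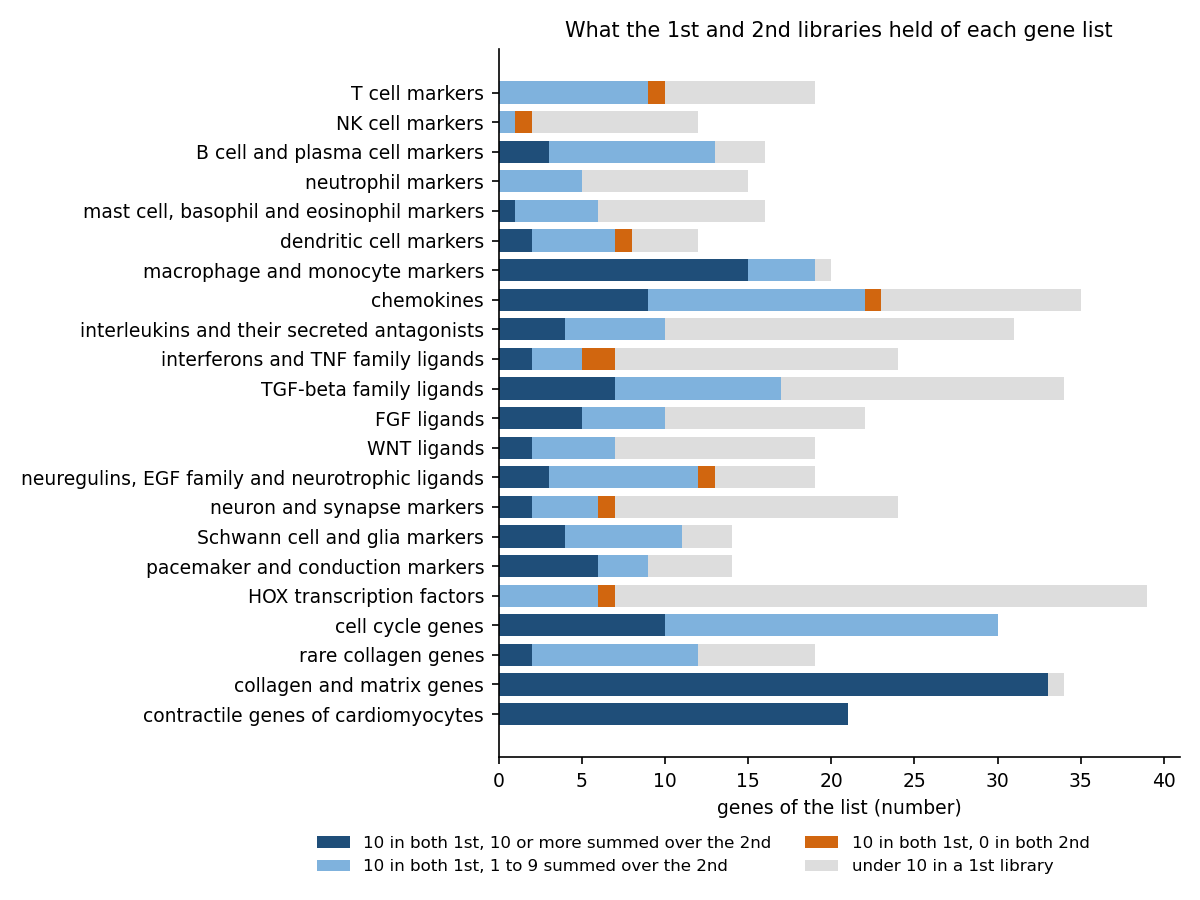
Number of genes (horizontal axis) of 22 gene lists (one bar each) with at least 10 counts in both 1st libraries, split by their counts summed over the 2nd libraries into 10 or more (dark blue), 1 to 9 (light blue) and 0 (orange), and with fewer than 10 counts in a 1st library (grey). All 21 contractile genes are dark blue, while 9 of the 19 T cell markers are light blue and 1 is orange.

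Of the chemokines, which draw leukocytes into tissue, 23 of 35 genes passed 10 counts in both 1st libraries and 4 in both 2nd. Neutrophil and monocyte attractants were among the low ones. Cxcl5 had 15 counts in mouse 2 and 153 in mouse 3, 11.6-fold higher in mouse 3 (interval 6.79 to 21.2), against 0 and 6 in the 2nd libraries. Cxcl1 had 61 and 119 against 0 and 4. Ccl2 and Ccl7, ligands of the monocyte receptor CCR2, had 65 and 129, and 65 and 105, against 0 and 5, and 0 and 7. The level of Ccl2 was 2.25-fold higher in mouse 3 (interval 1.66 to 3.08). Ccl5, a T cell attractant, was seen only at depth (18 and 46). Cxcl10, an interferon-induced chemokine, had 32 and 142. Cxcl13, which draws B cells, was higher in mouse 2 with 192 and 42 (4.03-fold, interval 2.88 to 5.78). That order is the one of the B cell markers.

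Interleukins stayed low even at depth, with 10 of 31 genes past 10 counts in both 1st libraries. Il1b, the inflammasome cytokine of the first days after infarction, had 17 counts in mouse 2 and 69 in mouse 3, 4.60-fold higher in mouse 3 (interval 2.68 to 8.34). Il6 had 2 and 25, and the 2nd libraries held 0 and 2. Il33, an alarmin of fibroblasts and endothelium, had 231 and 738, and Il15, a survival cytokine of natural killer and memory T cells, had 975 and 432. Il17a and Ifnb1 had no count in any library here, and Ifng had 0 and 2 in the 1st libraries. Among interferons and TNF family ligands, Ltb (35 and 24) and Tnfsf9 (14 and 29) were seen only at depth.

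Growth factor ligands differed in how many the 1st libraries reached. Counting 10 in both of them, 17 of 34 TGF-beta family genes passed, 10 of 22 FGF genes, 7 of 19 WNT genes, and 13 of 19 neuregulin, EGF family and neurotrophic genes. In both 2nd libraries these were 5, 3, 0 and 1. The 17 and the 5 include Bmp1, a protease and not a ligand of the TGF-beta family. It had 1013 and 4826 counts in the 1st libraries and 39 and 141 in the 2nd. Gdf15, a stress-induced member of the TGF-beta family, had 24 counts in mouse 2 and 228 in mouse 3, 10.8-fold higher in mouse 3 (interval 7.06 to 17.2). Inhba, the activin A subunit, had 19 and 132, 7.87-fold higher (interval 4.85 to 13.5). Wnt4 had 29 and 145, 5.67-fold higher (interval 3.78 to 8.76), against 0 and 2 in the 2nd libraries. Bdnf, a neurotrophin, had 207 and 148 counts, and Gdnf, a survival factor of neurons seen only at depth, 17 and 30. Nrg1, the ligand of the ErbB receptors of cardiomyocytes, had 36 and 124.

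Genes known from cardiac nerves were counted at low level, and counts from bulk tissue do not show that they came from nerves. Dbh, the enzyme that makes noradrenaline, had 64 counts in mouse 2 and 115 in mouse 3, and 0 and 9 in the 2nd libraries. Slc18a2, which loads amines into vesicles, had 68 and 72. Phox2a, a factor of autonomic neurons, was seen only at depth with 16 and 21, and Tac1, the precursor of the neuropeptide substance P, with 48 and 26. Th and Chat, the defining enzymes of sympathetic and parasympathetic neurons, had no count in any of the 12 libraries. Genes of Schwann cells, which sheathe nerve fibres, were better covered. Sox10, a factor of glial cells, had 27 and 44 counts, and 11 of the 14 Schwann cell and glia markers passed 10 counts in both 1st libraries.

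Conduction system genes also rested on the deep libraries. Of 14 pacemaker and conduction markers, 9 had 10 counts in both 1st libraries and 2 in both 2nd. Hcn4, the pacemaker channel of the sinus node, had 157 counts in mouse 2 and 226 in mouse 3, 1.63-fold higher in mouse 3 (interval 1.33 to 2.01). Its counts in the 2nd libraries were 4 and 7, a fold of 1.77 with an interval of 0.450 to 8.25. Cntn2, an adhesion protein of Purkinje fibres, had 73 and 385, 5.98-fold higher (interval 4.64 to 7.79). Shox2, a sinus node factor, had 11 and 51 (5.25-fold, interval 2.70 to 11.2). Tbx3 and Tbx18, factors of node development, had 203 and 293, and 131 and 289.

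Every one of 30 cell cycle genes passed 10 counts in both 1st libraries, and 2 did so in both 2nd. Mki67, a marker of dividing cells, had 309 counts in mouse 2 and 463 in mouse 3, and Top2a, the topoisomerase of replicating DNA, 161 and 285. The 2nd libraries gave Mki67 5 and 25 and Top2a 10 and 8. In CPM, the 1st libraries put Mki67 1.70-fold (interval 1.47 to 1.97) and Top2a 2.01-fold (interval 1.65 to 2.45) higher in mouse 3. The 2nd libraries put them at 5.06-fold (interval 1.90 to 16.9) and 0.810-fold (interval 0.278 to 2.28). The interval of Top2a in the 2nd libraries holds its 1st-library fold, and that of Mki67 does not, as 1.70 lies below 1.90. Members also differed at depth. Cenpf, a kinetochore protein, had 641 and 307 counts, 0.543-fold in mouse 3 against mouse 2, and Pcna, the replication clamp, had 988 and 741 (0.850-fold).

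Of 19 rarer collagen genes, 12 passed 10 counts in both 1st libraries and none in both 2nd. Col11a1, a fibrillar collagen best known from cartilage, had 18 counts in mouse 2 and 286 in mouse 3, 18-fold higher in mouse 3 (interval 11.2 to 30.8). Col24a1 had 11 and 277, 28.5-fold higher (interval 15.7 to 57.8), where the 2nd libraries gave 11.1-fold (interval 1.62 to 479). Col9a2, of the cartilage collagen IX, had 9 and 137. Summed over the list, the fold of mouse 3 over mouse 2 was 5.94 in the 1st libraries and 3.04 in the 2nd. Long transcripts were low in the 1st library of mouse 2, as described below, and the part of this in these folds was not tested. The abundant scar collagen Col3a1 had 352 and 4680 CPM in the 1st libraries and 389 and 4407 CPM in the 2nd, and needed no extra depth.

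Of the genes of adenosine signalling, the pathway that NECA acts on, 14 of 17 passed 10 counts in both 1st libraries and 5 in both 2nd. Adora1 had 241 counts in mouse 2 and 298 in mouse 3, and 8 and 11 in the 2nd libraries. Adora2a had 229 and 315, 1.56-fold higher in mouse 3 in CPM (interval 1.31 to 1.86), against 2 and 10, a fold of 5.06 with an interval of 1.08 to 47.5. Adora2b had 27 and 67, 2.81-fold higher (interval 1.77 to 4.57), against 2 and 0. Adora3 was the lowest with 14 and 12, against 0 and 1. At the depth of the other libraries the latter 2 receptors were counted at most 5 and 2 times per mouse.

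Developmental factors were covered unevenly. Of 35 cardiac progenitor and developmental factors, 25 passed 10 counts in both 1st libraries and 11 in both 2nd, Gata4 among them with 2076 and 2042 counts in the 1st and 73 and 68 in the 2nd. Of 39 HOX genes, which set position along the body axis, 7 passed in both 1st libraries and none in both 2nd. Hoxb3 was the best covered of those named here (37 and 69), and Hoxa3 was seen only at depth (18 and 14). Gata5, an endocardial factor, had 12 counts in mouse 2 and 37 in mouse 3, with none in the 2nd libraries. Hist1h2ac, a histone gene, was seen only at depth as well (15 and 12). Myog and Myod1, the factors of skeletal muscle, had 37 and 9 counts in mouse 2 and 0 in mouse 3. No other mouse had a count of either. The 2nd library of mouse 2 held 2 and 1.

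Differences between these 2 mice mostly had the same sign in the deep and the shallow libraries. Of 8602 genes with at least 10 CPM, 1531 differed more than 2-fold between the mice in the 1st libraries, 1482 of them higher in mouse 3. The 2nd libraries had the same sign for 1338 (87.4%), and 564 were also more than 2-fold apart there, and 8 differed more than 2-fold the opposite way. These are CPM of library totals, in which the median of the 8602 genes was higher in mouse 3 by 0.36 (log2) in the 1st libraries and by 0.25 in the 2nd. With TMM-scaled totals the medians were -0.05 and -0.04, and 992 genes were more than 2-fold apart, 636 higher in mouse 3 and 356 in mouse 2. Of these 992, 862 (86.9%) had the same sign in the 2nd libraries, where 63% of all 8602 genes did. Summed over gene lists, 35 of 39 lists above 20 CPM in the 2nd libraries had the same sign at either depth, and 31 with TMM-scaled totals. With 1 mouse on each side this compares 2 animals, and no test was made. Lists that differed in sign by CPM included the voltage-gated sodium and calcium channel genes, whose sum was 304 and 614 CPM in the 1st libraries and 652 and 504 CPM in the 2nd, against 671 to 789 CPM in the other mice. All of these libraries of the 2 mice lay below that range, the 1st library of mouse 2 furthest. Potassium channel genes were 144 and 184 CPM in the 1st libraries and 211 and 163 CPM in the 2nd. These too lay below the other mice, which had 219 to 321 CPM.

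**Figure D3:**
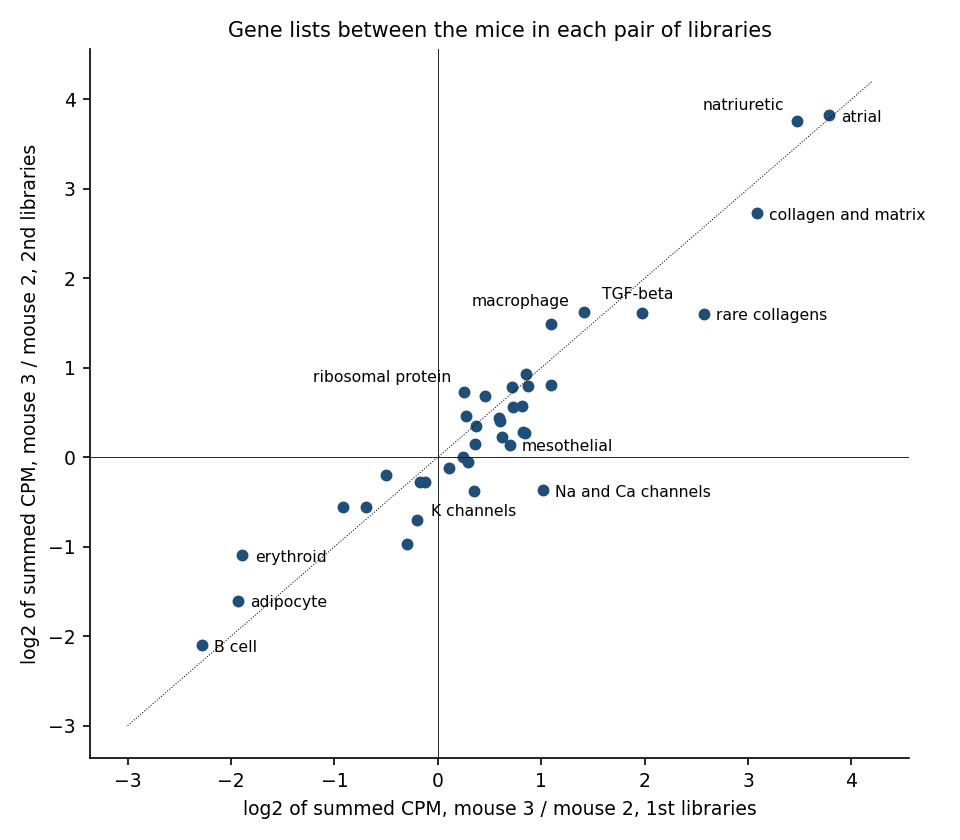
log2 ratio of mouse 3 to mouse 2 of the summed CPM of 39 gene lists in the 1st libraries (horizontal axis) and in the 2nd (vertical axis). Totals are not scaled further. 35 lists have the same sign on both axes, atrial, collagen and natriuretic lists lie far to the upper right and B cell markers to the lower left. The natriuretic peptide gene Nppa held 8078 of 9745 counts of the atrial list in the 1st library of mouse 2. In that of mouse 3 it held 115426 of 118419. Of other atrial markers, Myl4 (254 and 85 counts) and Sln (48 and 0) were higher in mouse 2 and Dkk3 (95 and 1470) in mouse 3.

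Gene by gene, few genes passed a test between the 1st and 2nd library. With the mouse as a block, 25 of 14710 genes passed (0.17%), 6 higher (0.0408%) and 19 lower (0.129%) in the 1st libraries, by edgeR's quasi-likelihood test with Benjamini-Hochberg adjustment. An unadjusted p under 0.05 was found for 445. None of the 25 passed in every alternative fit, nor in every one that kept both mice. No member of the 46 gene lists was among the 25, and the smallest adjusted p of any listed gene was 0.9998. The genes that passed were pseudogenes, near-identical copies and overlapping genes for the most part. Of 57 tested genes in the category of pseudogenes other than processed ones, 10 were lower and none higher. At least 50% of the transcript sequence was shared with another gene in 8 of the 25 (32%), against 631 (4.35%) of the 14518 tested genes with a sequence in the annotation.

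**Figure D4:**
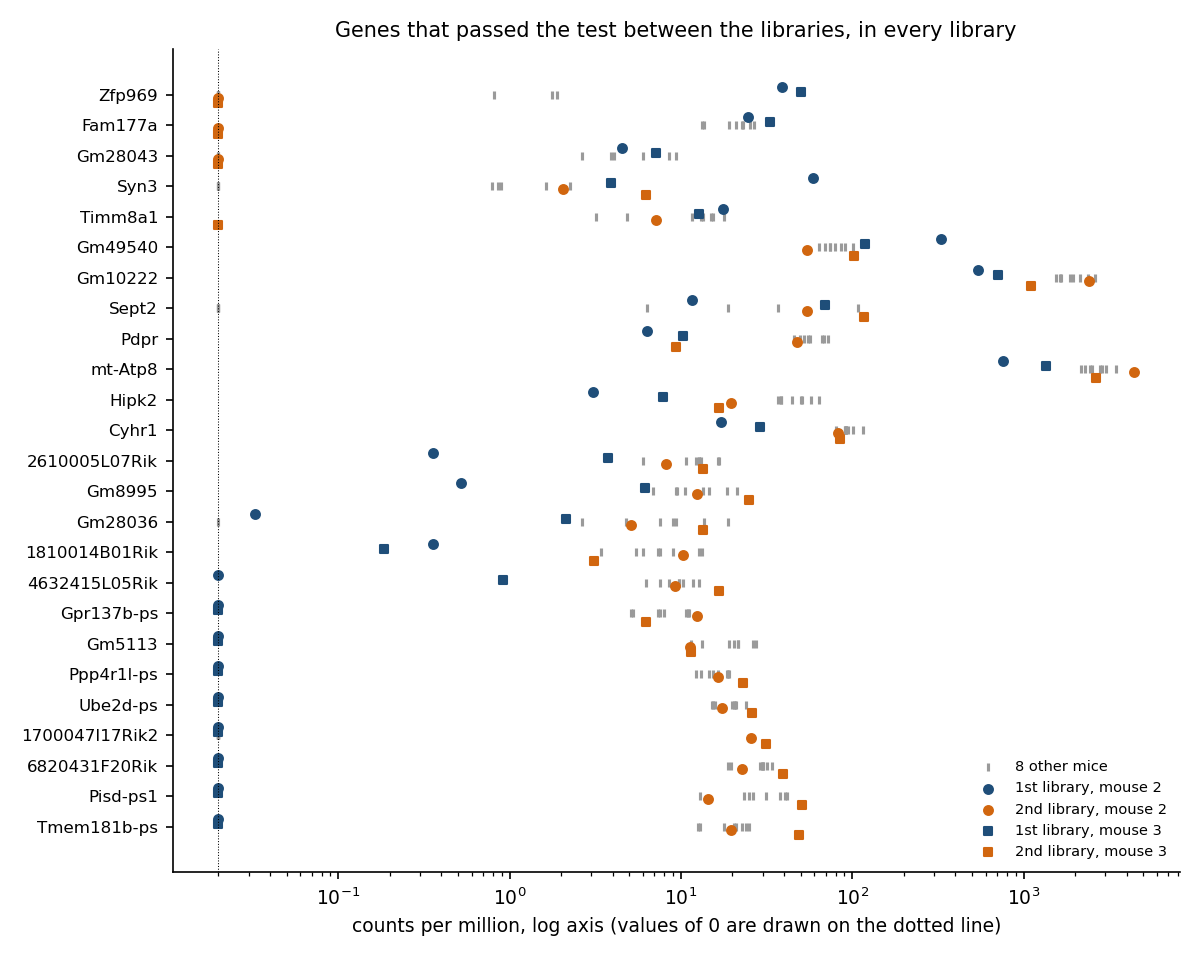
Level in CPM (horizontal axis, log scale, with 0 drawn on the dotted line at 0.02) of the 25 genes that passed, in the 1st (blue) and 2nd (orange) libraries of mouse 2 (circles) and mouse 3 (squares) and in each of the 8 other mice (grey ticks). The 8 genes at the bottom are at 0 in both 1st libraries, and all of them but 1700047I17Rik2 were counted in every other mouse.

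Of the 19 lower genes, 8 had no count at all in either 1st library. Tmem181b-ps had 19 and 47 counts in the 2nd libraries and 15 to 30 in each other mouse, a level at least 659-fold lower in the 1st as counted. Pisd-ps1 had 14 and 49 (at least 629-fold lower), Ube2d-ps 17 and 25 (at least 419-fold), Ppp4r1l-ps 16 and 22 (at least 380-fold) and Gpr137b-ps 12 and 6 (at least 180-fold). 6820431F20Rik had 22 and 38, and Gm5113 11 and 11. Each of these 7 was counted in all 8 other mice, so the 1st libraries stood alone. The sets of genes with values differ between the 1st and the other libraries, no source used here gives the annotation release of either, and whether these genes could receive reads in the 1st libraries was not tested. Sums with related genes were lower in the 1st libraries too. Tmem181b-ps, its relative Tmem181a and Tmem181c-ps summed to 16 and 25.9 CPM in the 1st libraries and to 43.2 and 66.7 CPM in the 2nd. The 5 lower genes described no further (4632415L05Rik, 1810014B01Rik, Gm28036, Gm8995 and 2610005L07Rik) had log2 fold changes from -5.39 to -2.86.

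Fam177a and 1700047I17Rik2 exchanged places. Of the sequence of 1700047I17Rik2, 99.7% occurs in Fam177a. Fam177a was at 24.6 and 33.3 CPM in the 1st libraries and 0 in the 2nd, and 1700047I17Rik2 at 0 in the 1st and 25.7 and 31.3 CPM in the 2nd. Their sum was 1.05-fold higher in the 2nd library in mouse 2 and 1.06-fold higher in the 1st in mouse 3. In the 8 other mice Fam177a alone was counted (13.3 to 26.8 CPM) and 1700047I17Rik2 never. Here the 2nd libraries were the ones that stood apart. The Zfp966 to Zfp969 group did not add up in this way, with a sum of 39.2 and 50.5 CPM in the 1st libraries, 3.09 and 4.17 CPM in the 2nd, and 3.25 to 10.2 CPM in the other mice.

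The septin gene Sept2 appears under 2 gene identifiers whose sequences are shared. ENSMUSG00000116048 was lower in the 1st libraries (log2 fold change -1.40 ± 0.30 SE, adjusted p = 0.00457 by edgeR), at 11.6 and 69.3 CPM against 54.5 and 117 CPM. ENSMUSG00000026276 had 92.2 and 57.5 against 26.8 and 38.6 CPM and did not pass (log2 fold change 1.20, adjusted p = 0.115 by edgeR). The sum, 104 and 127 against 81.3 and 155 CPM, was higher in the 1st library in mouse 2 and lower in mouse 3.

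Genes with a sequence of their own were fewer. Cyhr1 had 17.1 and 28.9 CPM in the 1st libraries and 82.3 and 84.4 CPM in the 2nd, and 80.5 to 115 CPM in the other mice (log2 fold change -1.87 ± 0.30 SE, adjusted p = 1.01e-06 by edgeR). Both 1st libraries lay below every other library. Hipk2, a nuclear kinase, had 95 and 213 counts in the 1st libraries and 19 and 16 in the 2nd, which is 3.09 and 7.85 against 19.6 and 16.7 CPM, with 36.9 to 63.7 CPM in the other mice (log2 fold change -1.82 ± 0.44 SE, adjusted p = 0.0239 by edgeR). For this gene all 4 libraries of the 2 mice lay below the others. Pdpr, a regulatory subunit of pyruvate dehydrogenase phosphatase, rested on mouse 2 (6.37 against 47.3 CPM). In mouse 3 it was at 10.4 and 9.38 CPM, where the other mice had 45.9 to 71.9 CPM. Without mouse 2 its log2 fold change was 0.09.

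In the mitochondrial genome, mt-Atp8, a subunit of ATP synthase, was lower in the 1st libraries at 757 and 1355 CPM against 4410 and 2643 CPM (log2 fold change -1.72 ± 0.33 SE, adjusted p = 1.95e-04 by edgeR). Its reading frame overlaps that of mt-Atp6 on the same transcript. Per 100 counts of mt-Atp6 it had 51.1 and 121 counts in the 1st libraries, 250 and 164 in the 2nd, and 161 to 302 in the other mice. Gm10222, a nuclear copy whose sequence is all found in mt-Nd4l, fell with it (log2 fold change -1.36 ± 0.32 SE, adjusted p = 0.0222 by edgeR).

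Of the 6 higher genes, Zfp969 and Fam177a are described above, and each of the other 4 overlaps another gene or shares sequence with one. Gm49540, an antisense RNA to the myoglobin gene Mb, had 328 and 119 CPM in the 1st libraries against 54.5 and 102 CPM in the 2nd. Per 100 counts of Mb these were 2.86 and 1.22 against 0.604 and 1.05, with 0.820 to 1.10 in the other mice. Syn3, a synapsin gene of neurons, had 1816 and 106 counts against 2 and 6. Timp3, an inhibitor of matrix proteases, lies within Syn3 on the opposite strand. Syn3 reached 58.0 counts per 100 of Timp3 in the 1st library of mouse 2, and 0 to 1.81 in the other 11 libraries. Whether the counting used strand is not given in the sources used here, so reads of either gene may be counted in the other. For both the larger difference was in mouse 2, and Syn3 had a log2 fold change of -0.73 without that mouse.

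Timm8a1, a chaperone of the mitochondrial intermembrane space, had 544 and 345 counts in the 1st libraries against 7 and 0 (log2 fold change 2.19 ± 0.55 SE, adjusted p = 0.0399 by edgeR). In CPM these were 17.7 and 12.7 against 7.20 and 0, and the other mice ranged from 3.18 to 18 CPM. The 1st libraries were thus inside the range of the other mice. Of its sequence, 41.8% is shared, with Gm9797. Gm28043, a gene model that overlaps Cmtr1 and Rnf8, had 139 and 195 counts against 0 and 0, at least 3.72-fold higher.

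The clearest difference between the libraries of a mouse went with transcript length, and in mouse 2. Over genes of at least 10 CPM, split into 5 groups of about equal number by the length of their longest transcript, the median log2 ratio of the 1st to the 2nd library of mouse 2 was 0.39 in the shortest group (up to 2014 bases) and then 0.12, -0.06, -0.20 and -0.44 in the longest (5559 bases and more). In mouse 3 the 5 medians were between 0.06 and 0.11. Set against the mean of the other mice, the longest group minus the shortest was -0.90 in the 1st library of mouse 2, -0.28 and -0.31 in the 1st and 2nd of mouse 3, -0.08 in the 2nd of mouse 2, and -0.12 to 0.10 in the other mice. The 1st library of mouse 2 therefore stood apart from all others in the level of long transcripts. By GC content of the transcript, the median went from 0.13 in the lowest group to -0.15 in the highest in mouse 2, and from -0.02 to 0.17 in mouse 3. These are descriptions across genes, which are not replicates.

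**Figure D5:**
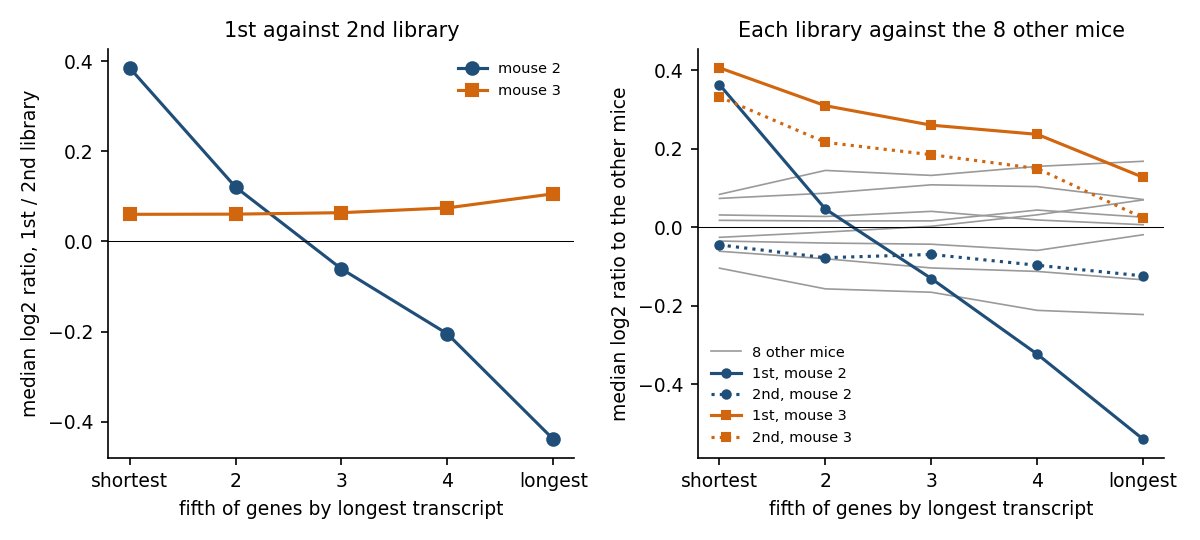
Left, median log2 ratio of the 1st to the 2nd library (vertical axis) for genes of at least 10 CPM in 5 groups by length of the longest transcript (horizontal axis), for mouse 2 and mouse 3. Right, the same groups in each library against the mean of the 8 other mice, which are drawn in grey. On the left, mouse 2 goes from 0.39 in the shortest group to -0.44 in the longest, and mouse 3 stays between 0.06 and 0.11.

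The pair of libraries of mouse 2 was the less alike. Of 8602 genes with at least 10 CPM, 685 (7.96%) differed more than 2-fold between its 1st and 2nd library, and 131 (1.52%) did in mouse 3. Above 100 CPM the standard deviation of the log2 ratio was 0.50 in mouse 2 and 0.28 in mouse 3, where counting alone gives 0.12 and 0.11. Between 1 and 3 CPM it was 1.20 and 1.09, against 1.01 and 0.99 from counting. In each of these bins and in both mice the spread was above that from counting.

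Ribosomal protein and respiratory chain genes, whose transcripts are short, were higher in the 1st library of mouse 2. All 79 cytosolic ribosomal protein genes had a positive ratio there, with a median log2 ratio of 0.52, and 52 of 79 in mouse 3 (median 0.06). No member passed the test in the fit of both mice, where the list's median log2 fold change was 0.33 and that of all tested genes 0.05. The 2 members of smallest p were Rps21, at 120 and 157 CPM in the 1st libraries and 41.2 and 141 CPM in the 2nd, and Rpl22l1, at 35.6 and 29.3 against 10.3 and 22.9 CPM. Of 34 nuclear-encoded respiratory chain genes, 32 had a positive ratio in mouse 2 (median 0.55) and 18 in mouse 3 (median 0.01). Ndufa2, of complex I, had 233 and 178 CPM against 133 and 149 CPM. Many ribosomal protein genes have processed pseudogenes, so their counts are uncertain.

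Channel and matrix genes were lower there. The 3 sodium and calcium channel genes at 10 CPM or more had a median log2 ratio of -1.22 in mouse 2 and 0.22 in mouse 3. Cacna1c, the L-type calcium channel, was at 126 and 286 CPM in the 1st libraries and 294 and 245 CPM in the 2nd, and at 248 to 309 CPM in the other mice. The 5 potassium channel genes had medians of -0.87 and -0.05. Of 33 collagen and matrix genes, 10 had a positive ratio in mouse 2 (median -0.37) and 21 in mouse 3 (median 0.07). Fbn1, of the elastic microfibrils, was at 35.3 and 329 against 67.9 and 299 CPM. The contractile genes of cardiomyocytes were close to even, with medians of -0.02 and 0.05. None of these genes passed the test. The part of transcript length in these ratios was not tested.

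As shares of all counts, classes set by gene name moved in the same direction in both mice in 8 of the 12 classes with at least 100 counts in each 2nd library. Some of the 8 hardly moved. The log2 ratio was -0.04 in mouse 2 and -0.03 in mouse 3 for RIKEN clone genes, and 0.48 and 0.01 for histone genes. Whether the signs of 2 mice agree more often than not was not tested. Mitochondrially encoded genes took 20.4% and 16.1% of the 1st libraries and 24.7% and 17.9% of the 2nd, with 19.9% to 24.6% in the other mice. Their nuclear copies took 17.5% and 12.7% against 14.4% and 14.1%, with 11.9% to 14.7% in the other mice. In mouse 2 the copies were thus higher in the 1st library, where the encoded genes were lower. How reads were divided between genes and copies was not tested. Ribosomal protein genes took 1.99% and 2.36% against 1.38% and 2.28%, with 1.24% to 1.54% in the other mice. Solute carrier genes were at 1.21% and 1.11% against 1.09% and 1.03%. When shares were taken of the counts outside mitochondrially encoded genes and their nuclear copies, 3 of 10 classes kept 1 direction in both mice. Chemosensory receptor genes remained nearly silent at depth, where 54 of 1161 olfactory and taste receptor genes had any count in the 1st libraries and 8 in the 2nd, and 17 and 2 of 326 vomeronasal receptor genes.

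The tables hold 306 genes with values in the 1st libraries only, and these cannot be set against any 2nd library. A count was found for 86 of them, and 37 had at least 10 counts in both mice, 14 of these at least 100. They summed to 7813 counts (0.0254%) in mouse 2 and 11291 (0.0416%) in mouse 3. In CPM, 28 of the 37 were higher in mouse 3, with a median fold of 1.54. Of the 14875 genes with 10 counts in both 1st libraries, 75.6% were, with a median fold of 1.36. The best covered was ENSMUSG00000121583 with 1517 and 1593 counts, and then ENSMUSG00000121513 with 968 and 1387, ENSMUSG00000121500 with 462 and 1323, ENSMUSG00000121492 with 477 and 1158 and ENSMUSG00000121395 with 351 and 1035. None of these 5 had a name in the annotation used. The 101 genes that lack values in the 1st libraries alone were not compared.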

How the data were processed

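RNA was extracted with EasyBlue and made into 3′ libraries by a CEL-Seq2 protocol with 9 PCR cycles and no pooling, per the labels' protocols. FastQC 0.11.9, STAR and RSEM with the build GRCm39 were used, per the submitters' processing notes. The authors deposited expected counts per gene as whole numbers, so they were rounded before deposit, and a table of log2(TPM + 1). Of 57054 gene rows, 306 had values only in the 1st libraries and 101 lacked them only there, and the 56647 others were used. Names and gene types came from GENCODE M21 (52029 matched by identifier). It belongs to another build, so no coordinates are given.

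The 1st and 2nd libraries were compared in edgeR 4.0.16 under R 4.3.3 (filterByExpr, TMM, robust quasi-likelihood, two-sided, Benjamini-Hochberg over 14710 genes, threshold 0.05), with the mouse as a block. The pairing comes from the labels, which name the mouse. The fit leaves 1 residual degree of freedom, so the spread is shared over genes. It was tested on simulated data drawn with the same spread for every gene and both mice. The measured spread differed between the mice, so no support is drawn from the simulation. Genes seen only at depth had at least 10 counts in both 1st and 0 in both 2nd libraries. Folds against such zeros use a limit of 3 counts over the group. Folds between mice are ratios of CPM with exact binomial intervals. Shared sequence is the share of a gene's 31-mers found in other genes. CPM ratios used 8602 genes with at least 10 CPM.

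Members and the 46 lists were chosen with earlier results of these data known. Named were all genes past the threshold with an established symbol, the 10 highest of those seen only at depth, up to 4 such members per list, 2 members of smallest p for lists described by the fit, and the 5 highest present in the 1st libraries only. Other genes were named after their values were seen. Alternatives were other scalings, no block, DESeq2 1.42.0, other filters, all 12 libraries, the deposited log2 values, and leaving out each mouse. Scalings of the contrast between mice were added after seeing the data.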

Additional observations from a re-analysis of the deposited data

Results flagged for a closer look

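Several gene groups had a ratio of the 1st to the 2nd library that was above 0 in one mouse and below 0 in the other. With a single library of each kind per mouse, this difference between the mice was not tested. As the log2 ratio of shares in mouse 2 minus that in mouse 3, it was 0.42 for nuclear copies of mitochondrial genes, 0.42 for pseudogenes with names of their own, -0.58 for collagen genes and -0.32 for zinc finger protein genes. As the difference of median log2 ratios it was 0.24 for macrophage and monocyte markers and 0.83 for erythroid markers. It was -0.75 for mesothelial and epicardial markers and -0.56 for TGF-beta family ligands, a list that includes the protease Bmp1. Among genes of at least 10 CPM in 5 groups, it was -0.31 for the group highest in GC content and -0.54 for the one with the longest transcripts.

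Genes with values in the 1st libraries only held 19104 counts over both mice, in data outside the comparison of libraries. No control library has a value for them.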

How the results depend on the processing

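The count of 25 genes that differed between the libraries was 10 with no replicate block, 11 with a mean of at least 10 CPM, 6 with DESeq2 and 13 with all 12 libraries in the fit, and 12 to 176 with a mouse left out (12 without mouse 2, 176 without mouse 3). The latter 2 fits set 1 library against 1, take the spread from the sham and NECA groups and assume that the lone libraries vary alike. The count was 23 with DESeq2 size factors, 22 without scaling (3 higher) and 18 with no filter, which moved the median log2 fold change of all genes from 0.05 to 0.30. With a mouse left out the log2 fold change of Pdpr was -2.82 to 0.088 and that of Syn3 -0.73 to 4.89, reversed without mouse 2. The 548 genes seen only at depth were 1915 at a minimum of 3 counts, 87 at 30, and 18 when all 10 smaller libraries had to be at 0. With 1 mouse they were 1779 to 1793. Classes with 1 direction in both mice went from 8 of 12 to 3 of 10 outside mitochondrial genes and their copies. Lists with a median beyond 0.5 were 1 of 43, and 4 to 12 with a mouse left out. At least 10 counts were reached by 7946 and 8905 genes in the 2nd libraries of mice 2 and 3. The cause of these changes was not tested. None of the 25 genes passed in all of these fits. Other scalings of the contrast between mice, chosen after seeing the data, gave 992 and 982 genes more than 2-fold apart in place of 1531.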

Other observations

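Zc3h11a, a zinc finger gene of RNA export, appears under 2 identifiers. ENSMUSG00000102976 had 2074 and 3082 counts in the 1st libraries of mice 2 and 3, and 9 and 92 in the 2nd. ENSMUSG00000116275, which has no value in the 1st libraries, had 64 counts in the 2nd library of mouse 2. Outside that library it was counted in sham mouse 2 (68) and in NECA mouse 4 (66) and in no other.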
